A study of Rattus norvegicus with 6 samples.

Results

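The 6 genes of organic cation, carnitine and nucleoside transport were followed in the left ventricle of diabetic OLETF rats and of LETO control rats, namely Slc47a1, Slc22a3, Slc29a4, Slc22a4, Slc22a5 and Slc29a1. They are 6 of the 26456 gene names on the array and 6 of the 18816 genes that could be tested. The group was chosen on its values in the comparison of OLETF with LETO, with Slc47a1 leading it. The differences of these 6 genes between the strains are therefore given as a description. No p-value is given for them, and no result is read from their calls in the fit over all genes below. Slc47a1 had signal above background on all 3 OLETF arrays and on none of the LETO arrays, and the widest measured difference of the 6 except after normexp correction and quantile normalization. Slc22a4 was also higher on every OLETF array than on any LETO array, and the arrays of the 2 strains overlapped for the other 4 genes.

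Total RNA of left ventricular tissue was labelled with Cy3 and hybridised to 1-colour Agilent rat gene expression arrays. The OLETF group held 3 arrays of male rats aged 27, 28 and 27 weeks, labelled as diabetic, and the LETO group 3 arrays of male rats aged 27, 28 and 28 weeks, labelled as healthy controls; the labels name no treatment or engineered allele. OLETF is an inbred rat that lacks a working receptor for cholecystokinin type A, overeats and becomes obese and then diabetic. LETO is the lean strain bred alongside it from the same stock. Diabetes, body weight and any other inherited difference between the strains therefore cannot be told apart in this comparison.

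Organic cations such as monoamines, thiamine, choline and the drug metformin carry a charge at body pH and need a transporter to cross the cell membrane. SLC22 proteins take them up, MATE proteins of the SLC47 family push them out in exchange for protons, and the equilibrative transporters of the SLC29 family let nucleosides, and in one case monoamines, run down their gradient. In heart muscle the best known duty of these families is the uptake of carnitine, without which long-chain fatty acids do not enter mitochondria, together with the removal of noradrenaline and adenosine from the space around the cells.

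Each gene is read through 60-base probes. The sequences below are of the pair of genes whose arrays did not overlap between strains, and of the gene with more than 1 probe. They are the array's own designed probes, written 5′ to 3′, with a hexamer of the polyadenylation signal type (AATAAA or ATTAAA, searched on the printed strand only) in capitals.
Slc47a1: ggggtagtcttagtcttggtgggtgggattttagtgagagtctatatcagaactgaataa
Slc22a4: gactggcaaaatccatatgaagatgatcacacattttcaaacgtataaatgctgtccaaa
Slc29a4, probe that stands for the gene: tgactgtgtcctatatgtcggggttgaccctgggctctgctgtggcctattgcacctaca
Slc29a4, second probe: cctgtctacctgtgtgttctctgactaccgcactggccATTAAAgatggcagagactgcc
Of the 7 probes of the 6 genes, only the second Slc29a4 probe held such a hexamer; AATAAA was in 8.39% and ATTAAA in 3.05% of all 30367 probes. The longest run of bases shared by any of the 21 pairs among the 7 probes was 7 bases. On build rn4, the array file places the Slc47a1 probe at chr10:47514303-47514362 on the minus strand, the probe that stands for Slc29a4 at chr12:12242306-12242365 and the second Slc29a4 probe at chr12:12241259-12241318, both on the minus strand. It gives no rn4 position for the Slc22a4 probe. The other probes lie at chr1:42781492-42781551 on the plus strand for Slc22a3, chr10:39311935-39311994 on the minus strand for Slc22a5 and chr9:11014819-11014878 on the plus strand for Slc29a1. Whether a probe lies in coding sequence or a UTR was not analysed here.

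Signal is given as log2 of the processed spot intensity relative to the 75th percentile of its array, so 0 is the level of the 75th percentile and -1 is one halving below it. That percentile was 1228, 887 and 1227 intensity units on the OLETF arrays and 1056, 952 and 1057 on the LETO arrays, and 75.7 to 79.8% of spots on the OLETF arrays and 75.6 to 79.4% on the LETO arrays were well above background. Probes differ in brightness for reasons of their own, so no gene is ranked against another by level. The 3 LETO arrays and OLETF 1 shared a slide, and OLETF 2 and 3 were on another. LETO 1 lay apart from the other arrays on the second principal component, at -33.3 against -4.24 to 19.5. In the fit over all genes with limma, 480 of 18816 genes were called at an adjusted p under 0.05, or 2.55%, and 283 genes, or 1.50%, were called higher in OLETF. As background for the counts below, 2336 of the 18816 genes had an unadjusted limma p under 0.05 and 8949 had a positive difference. Of the 6 transporters, 2 passed the adjusted threshold, both higher in OLETF (Slc47a1 and Slc22a4). Slc22a4 fell short of it with slide or replicate number as a block and with no filter on dim probes. It also fell short when any 1 OLETF array was left out. Since this contrast chose the genes, no result is read from these calls or from their share. The call of Slc22a4 only decided that the genes most like it are named below. All arrays of 1 strain lay above all those of the other in 17.4% of genes and for the same 2 of the 6 transporters. The median difference, OLETF minus LETO, was 0.17 on the log2 scale over the 6 genes and -0.01 over all genes. The labels do not say whether the each array holds the RNA of 1 separate rat beyond calling the experiments independent, so the spread may be in part technical.

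**Figure D1:**
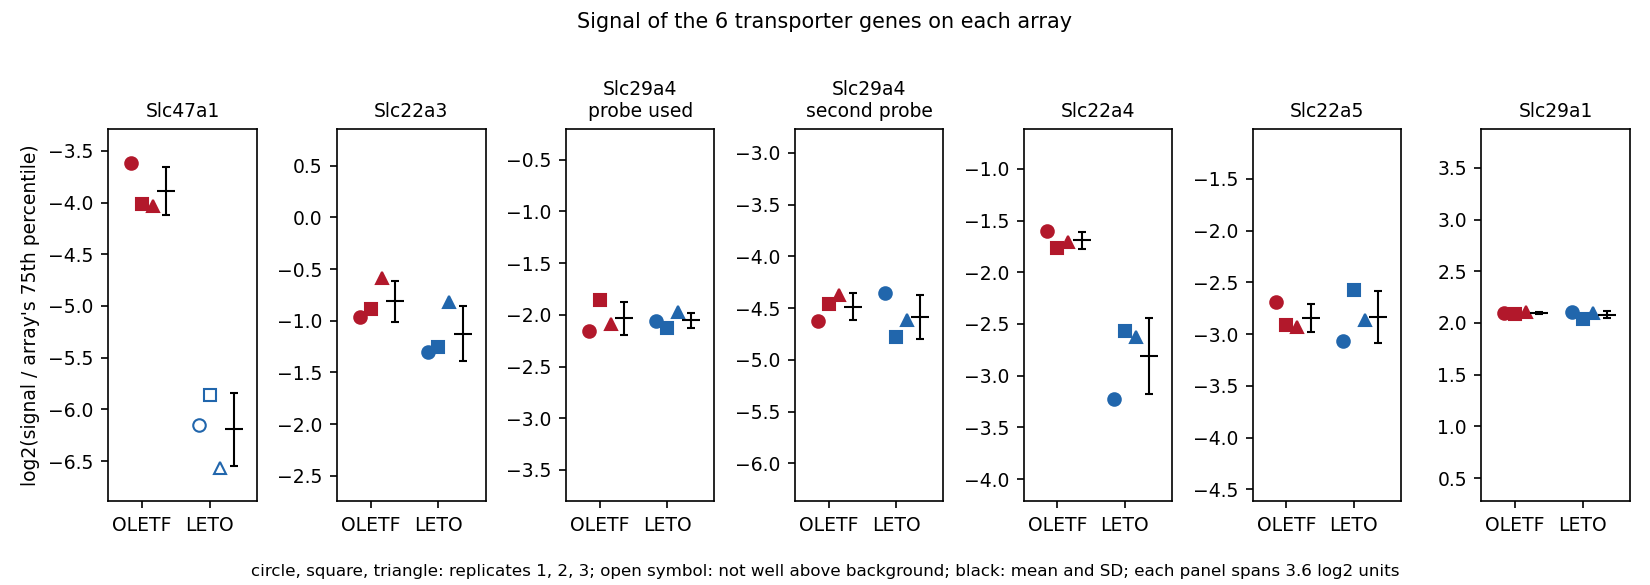
Each panel plots 1 probe, with the log2 signal relative to the array's 75th percentile on the vertical axis and OLETF left of LETO; symbols are arrays, open symbols are spots not well above background, and black bars are the mean and SD of 3 arrays. Slc47a1 and Slc22a4 are the panels in which the strains do not overlap, and the 3 LETO spots of Slc47a1 are all open.

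Slc47a1 encodes MATE1, the proton-coupled exporter that passes organic cations, metformin among them, out of kidney tubule and liver cells. Its log2 signal was -3.62, -4.02 and -4.03 on the OLETF arrays, against -6.15, -5.87 and -6.56 on the LETO arrays. Every OLETF array was far above every LETO array. As plain intensity the spot read 100.2, 54.7 and 75.1 units in OLETF, against 14.9, 16.3 and 11.2 units in LETO, where the scanner software put the error of a single spot at 3.62 to 4.66 units. It was well above background on 3 of 3 OLETF arrays and on 0 of 3 LETO arrays, so the LETO level is only a bound. Means were -3.89 ± 0.24 in OLETF and -6.19 ± 0.35 in LETO (SD, n = 3 each), a measured difference of 2.30 ± 0.20 (SE).

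The dimmest spot called well above background was at 13.9, 15.4 and 19.6 intensity units on the LETO arrays. With the LETO level taken as no lower than that spot, Slc47a1 came out 4.10-fold higher in OLETF. The bright strain's mean over its arrays was set against the LETO mean of, per array, the higher of that dimmest spot and the Slc47a1 spot. On LETO 1 and LETO 2 the Slc47a1 spot was the higher, at 14.9 and 16.3 units, though not well above background. So 4.10-fold is not a strict minimum. The level in OLETF itself was low: 6.12 to 8.16% of the array's 75th percentile. The measured difference was 2.12 to 2.47 when any 1 array was left out, and 2.58 on the slide that OLETF 1 shares with all LETO arrays. After normexp background correction with an offset of 50 and quantile normalization it was 0.76; adding 50 units to spots of this dimness shrinks ratios by its construction, and Slc22a4, at 0.84, then had the wider difference. The other member of the family on the array, Slc47a2 (MATE2), was well above background on 0 of 6 arrays and was not tested.

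Slc22a3 encodes OCT3, the extraneuronal monoamine transporter, a low-affinity, high-capacity carrier that takes up noradrenaline, histamine and metformin and is found in heart muscle. On the log2 scale it read -0.97, -0.88 and -0.59 in OLETF, against -1.31, -1.25 and -0.82 in LETO. The OLETF arrays tended to sit higher, but LETO 3 lay above OLETF 1 and OLETF 2. The difference was 0.31 ± 0.16, 1.24-fold on a linear scale, with means of -0.81 ± 0.20 in OLETF and -1.13 ± 0.27 in LETO. On the shared slide it was 0.16, and it remained between 0.16 and 0.47 under 20 other settings.

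Slc29a4 encodes PMAT, the plasma membrane monoamine transporter, which belongs to the nucleoside transporter family by sequence and carries serotonin, dopamine and, in acid conditions, adenosine. The probe that stands for the gene gave -2.16, -1.85 and -2.09 in OLETF, against -2.06, -2.12 and -1.98 in LETO, a difference of 0.02 ± 0.11. The dimmer second probe, which holds the ATTAAA hexamer printed above, gave -4.62, -4.46 and -4.37 in OLETF, against -4.36, -4.78 and -4.61 in LETO, a difference of 0.10 ± 0.13. The strains overlapped on both probes. On the shared slide the first probe turned to -0.10.

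Slc22a4 encodes OCTN1, a carrier of the dietary antioxidant ergothioneine and a weak carrier of carnitine, known from macrophages, red cell precursors and many tissues. Its log2 signal was -1.60, -1.76 and -1.71 in OLETF, against -3.23, -2.57 and -2.63 in LETO. All 3 OLETF arrays lay within a narrow band above the LETO arrays, of which LETO 1 was the lowest. Means were -1.69 ± 0.08 in OLETF and -2.81 ± 0.37 in LETO, a difference of 1.12 ± 0.18, or 2.17-fold. All 6 spots were well above background, with intensities of 405, 261 and 376 units in OLETF and 113, 160 and 171 units in LETO.

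Without LETO 1 the difference of Slc22a4 was 0.91, the lowest value with 1 array left out, and without LETO 2 it was 1.24, the highest. On the shared slide it was 1.21.

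Slc22a5 encodes OCTN2, the sodium-coupled carnitine transporter whose loss causes systemic carnitine deficiency with cardiomyopathy. In log2 signal it read -2.69, -2.91 and -2.93 in OLETF, against -3.06, -2.57 and -2.87 in LETO. The strains overlapped, with means of -2.84 ± 0.14 in OLETF and -2.83 ± 0.25 in LETO and a difference of -0.01 ± 0.14. The sign of so small a difference was opposite in 9 of 20 other settings, which ran between -0.12 and 0.15.

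Slc29a1 encodes ENT1, the main equilibrative transporter of adenosine in heart muscle and the target of dipyridamole. Its log2 signal was 2.10, 2.08 and 2.10 in OLETF, against 2.11, 2.04 and 2.10 in LETO. The 6 arrays were nearly level, and this gene had the smallest spread of the 6 within OLETF, with an SD of 0.01. The difference was 0.01 ± 0.08 and it lay between -0.01 and 0.03 in 20 other settings.

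**Figure D2:**
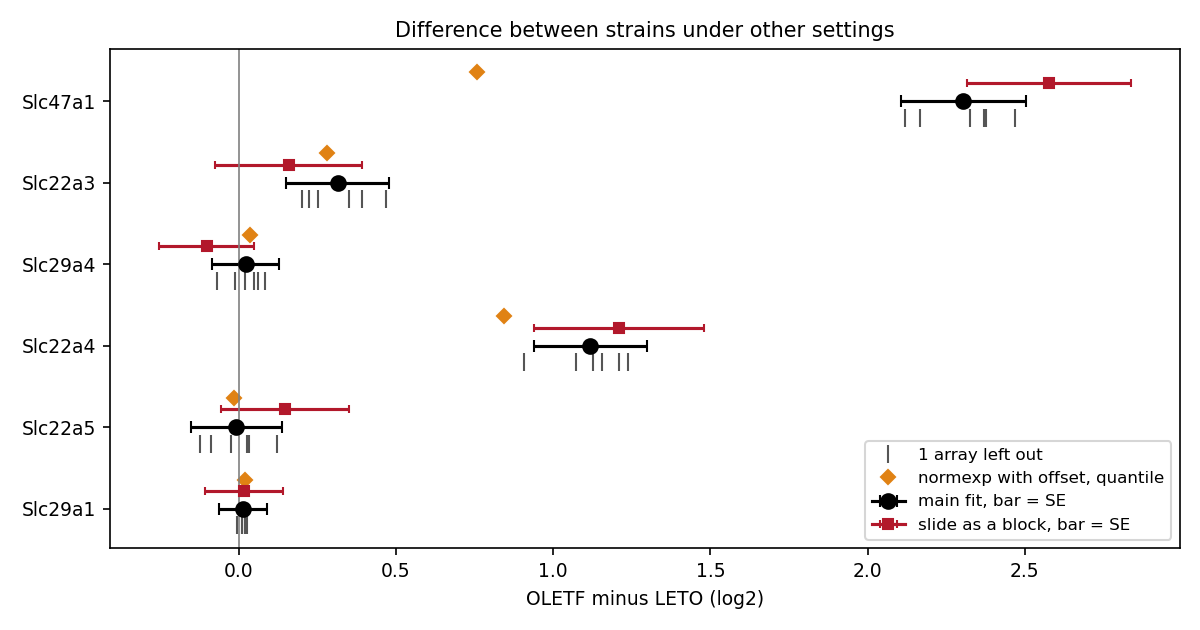
The horizontal axis is the difference OLETF minus LETO in log2 units for each gene; black points are the fit over all genes with its SE, ticks are values with 1 array left out, red squares have slide as a block with SE, and orange diamonds have normexp correction and quantile normalization. Slc47a1 and Slc22a4 stay right of 0 in each of them, and Slc22a5, Slc29a1 and Slc29a4 lie about 0.

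Slc22a4 and Slc22a5 lie 2 gene places apart in the rat genome, with no tested gene between them. Places followed the RefSeq annotation of assembly GRCr8, which was used for gene order only. The 3 nearest tested genes on either side of each of the 6 transporters, a set added after the values were seen, came to 30 further genes. Of these, 0 were called, against 2.55% of all genes. An unadjusted limma p under 0.05 was reached by 3 of the 30, against 2336 of all 18816 genes. Their differences ran between -0.63 and 0.41, with a median of -0.02. Around Slc22a4, the next tested genes were Pdlim4 (named Ril on the array, a cytoskeletal adaptor) with -0.02 ± 0.25, P4ha2 (a collagen prolyl hydroxylase subunit) with -0.02 ± 0.08, Irf1 (an interferon response factor) with -0.29 ± 0.27, Rad50 (a DNA repair protein) with -0.02 ± 0.14 and Acsl6 (a fatty acyl-CoA ligase) with 0.16 ± 0.14. Of these 5 neighbours, 0 were called, and the arrays of the strains overlapped for Slc22a5. Slc22a4 was chosen on this contrast, so its wider difference beside them is a description.

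Beside Slc47a1 lies Rnf112, with a difference of 0.41 ± 0.24 and signal well above background on 1 of 3 LETO arrays. On the other side lies Aldh3a2, the fatty aldehyde dehydrogenase, with 0.36 ± 0.08 and a limma adjusted p of 0.0834. A dimmer second Aldh3a2 probe gave 0.23, and there the strains overlapped. The further tested neighbours were Aldh3a1 with -0.13 ± 0.21, Usp22 with 0.02 ± 0.14, Mfap4 with -0.005 ± 0.28 and B9d1 with 0.17 ± 0.16. Aldh3a2 passed the threshold under 3 of the alternative settings, with normexp correction and quantile normalization, with a trended and robust prior and with array weights. These called 545, 654 and 1700 of all genes, against 480 as reported, and Aldh3a2 was called in no other setting.

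**Figure D3:**
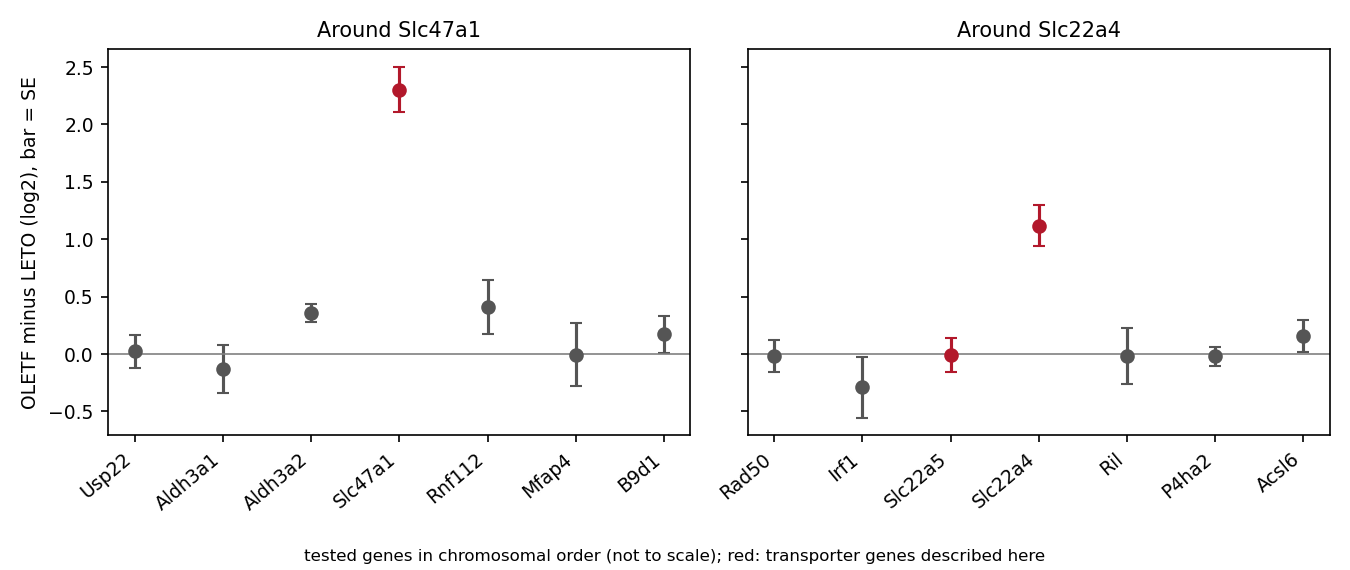
The vertical axis is the difference OLETF minus LETO in log2 units with its SE, for tested genes in chromosomal order around Slc47a1 (left) and Slc22a4 (right); red marks the transporter genes described here. Slc47a1 at 2.30 and Slc22a4 at 1.12 stand above their neighbours, which lie between -0.29 and 0.41.

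The pathway around the transporters was followed in 5 lists of 63 related genes, of which 60 were on the array and 48 were tested. Of the 48, 1 was called, or 2.08%, against 2.55% of all genes. Of the 48 differences, 30 were positive and 9 had an unadjusted limma p under 0.05. Over all 18816 genes, 8949 differences were positive and 2336 had an unadjusted limma p under 0.05. The gene called was Pdzk1. The lists were chosen with earlier results of these data known, so the call of Pdzk1 and its p-value are a description. The median over the 48 was 0.04, against -0.01 over all genes.

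Pdzk1 encodes a scaffold with PDZ domains, known from kidney, gut and liver membranes, that holds transporters including OCTN1 and OCTN2 by their C-terminal ends. Its log2 signal was -2.46, -2.78 and -2.68 in OLETF, against -5.27, -5.71 and -5.73 in LETO. Every OLETF array lay well above every LETO array. Means were -2.64 ± 0.16 in OLETF and -5.57 ± 0.26 in LETO (SD, n = 3 each), a measured difference of 2.93 ± 0.15, or 7.59-fold, with a limma adjusted p of 0.00025. The spot was well above background on 3 of 3 OLETF arrays and on 1 of 3 LETO arrays, so the LETO mean rests in part on spots near background.

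The gene entered the test through the OLETF arrays and has no value when a spot must be above background on all 6 arrays; with no filter on dim probes its limma adjusted p was 0.00337. Over the settings that gave a value the adjusted p lay between 1.41e-05 and 0.00656, and the difference was 1.39 or more, the lowest with normexp correction. It is read by 1 probe, at chr2:191674545-191674604 on the plus strand of rn4, shown because the result rests on it alone.
Pdzk1: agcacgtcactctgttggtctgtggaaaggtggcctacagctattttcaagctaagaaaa
The related scaffolds Slc9a3r1 (NHERF1) and Slc9a3r2 (NHERF2) had differences of -0.31 ± 0.12 and 0.18 ± 0.11 and were not called, with limma adjusted p of 0.339 and 0.629. Of the other regulators, Ppara, the fatty acid sensing nuclear receptor that controls Slc22a5 in rodent liver, had 0.52 ± 0.12 with a limma adjusted p of 0.0803. On the arrays it read 0.07, -0.16 and -0.04 in OLETF, against -0.60, -0.72 and -0.38 in LETO. The arrays of the strains did not overlap, as in 17.4% of all genes. Ppara passed the threshold with a trended and robust prior and with array weights, and in no other setting. Those settings called 654 and 1700 of all genes, against 480 as reported.

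Among 15 genes of cation and choline transport, 8 were tested and 0 were called, with 1 at an unadjusted limma p under 0.05 and a median of -0.04. Slc44a2, a choline transporter-like protein, had -0.21 ± 0.11 with a limma adjusted p of 0.565. The other 7 genes, among them Slc22a2 (OCT2), the serotonin and dopamine transporters Slc6a4 and Slc6a3, and the neuronal choline transporter Slc5a7, were above background on too few arrays to be tested.

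In the carnitine shuttle, 10 of 14 listed genes were tested and 0 were called, with 2 at an unadjusted limma p under 0.05; 8 of the 10 differences were positive, with a median of 0.10. Cpt1c, the brain-type carnitine palmitoyltransferase, read -1.84, -1.59 and -1.48 in OLETF, against -2.02, -2.33 and -2.27 in LETO, a difference of 0.57 ± 0.13 with a limma adjusted p of 0.0829. All OLETF arrays were above the LETO arrays, and 17.4% of all genes likewise had no overlap between the strains. The gene was called under 3 alternatives: normexp correction with quantile normalization, a trended and robust prior, and array weights. These called 545, 654 and 1700 of all genes, against 480 as reported, and Cpt1c was called in no other setting. Crot, the peroxisomal carnitine octanoyltransferase, had 0.21 ± 0.08 with an adjusted p of 0.355. Cpt1b, the muscle isoform that makes long-chain acylcarnitine at the outer mitochondrial membrane, had -0.02 ± 0.10, and Cpt2, its partner at the inner membrane, had 0.15 ± 0.11. Bbox1, the last enzyme of carnitine synthesis, was above background on 0 of 6 arrays.

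In nucleoside transport and adenosine handling, 13 of 14 genes were tested and 0 were called, with 1 at an unadjusted limma p under 0.05 and a median of 0.08. That gene was Slc29a2 (ENT2), with -2.82, -2.99 and -3.09 in OLETF, against -2.52, -2.80 and -2.64 in LETO. Its difference was -0.32 ± 0.11 with a limma adjusted p of 0.291. The strains did not overlap, as in 17.4% of all genes. The adenosine receptor Adora2a had 0.31 ± 0.15 with an adjusted p of 0.492.

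In monoamine breakdown, which meets the cations that OCT3 and PMAT bring into the cell, 7 of 9 genes were tested and 0 were called, with 2 at an unadjusted limma p under 0.05. Aoc3, the vascular amine oxidase of smooth muscle and fat, read 3.35, 3.20 and 3.17 in OLETF, against 3.73, 3.78 and 3.53 in LETO. The difference was -0.44 ± 0.10 with a limma adjusted p of 0.0949. The strains did not overlap, as in 17.4% of all genes. Aoc3 was called lower with a trended and robust prior and with array weights, at limma adjusted p of 0.0471 and 0.0455. Those settings called 654 and 1700 of all genes, against 480 as reported, and Aoc3 was called in no other setting. Maoa, monoamine oxidase A, read 4.78, 4.46 and 4.76 in OLETF, against 4.54, 3.53 and 3.17 in LETO; only LETO 1 reached the OLETF range. Its difference was 0.92 ± 0.33 with a limma adjusted p of 0.291, and without LETO 1 it was 1.32 with an adjusted p of 0.0178. That fit called 614 of all genes, against 480 as reported. With array weights, where LETO 1 had the lowest weight, Maoa had 1.39 with a limma adjusted p of 0.00677. Maoa was called in no other setting, the other fits with 1 array left out among them.

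**Figure D4:**
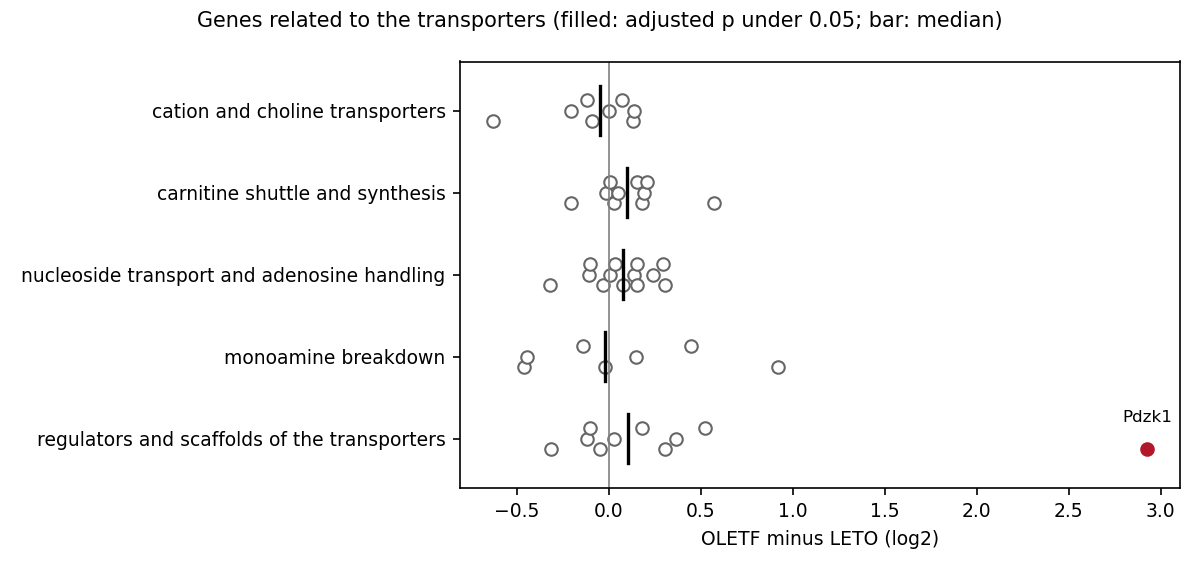
The horizontal axis is the difference OLETF minus LETO in log2 units of each tested gene in the 5 related lists, the black bar is the list's median, and filled points have a limma adjusted p under 0.05. Pdzk1 at 2.93 is the only filled point, and the other 47 genes lie between -0.63 and 0.92.

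In the transporters' own families, leaving the 6 genes out, 9 Slc22 genes were tested with limma and 0 were called, with 3 at an unadjusted p under 0.05, and 2 Slc29 genes were tested with 0 called and 1 at an unadjusted p under 0.05. Of 238 other solute carrier genes tested, 9 were called, or 3.78%, 4 higher and 5 lower in OLETF. Those with the widest differences among genes above background on all arrays were Slc4a1, the anion exchanger of red cells, with 3.19 ± 0.36 and a limma adjusted p of 0.00589, and Slc39a5, a zinc importer, with 1.55 ± 0.14 and an adjusted p of 0.00257. Lower in OLETF were Slc35c2, a Golgi nucleotide sugar transporter family member, with -1.47 ± 0.10 and an adjusted p of 0.000875, Slc35f1, with -1.32 ± 0.12 and 0.00218, and Slc26a11, a sulphate transporter, with -1.29 ± 0.18 and 0.0126. With slide as a block, Slc4a1 had an adjusted p of 0.116 and Slc35f1 of 0.0604; Slc26a11 had 0.0626 without OLETF 3 and 0.0558 with no filter on dim probes.

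The genes whose pattern over the 6 arrays was most like that of Slc47a1, by the root mean square difference after each gene was centred on its mean, were the unnamed probe A_64_P053358 at 0.156 log2 units and RGD1565410 (Ly6cl1 in RefSeq) and the unnamed probe A_64_P030110, both at 0.254. Those nearest to Slc22a4 were LOC680262 at 0.0721, the unnamed probe A_64_P140907 at 0.0932 and Odf2l at 0.0973. All 6 share the strain difference by which likeness was measured, with OLETF minus LETO between 2.10 and 2.16 for the first 3 and between 1.07 and 1.13 for the other 3. LOC680262, for example, read -2.95, -2.93 and -2.99 in OLETF, against -4.48, -3.94 and -3.83 in LETO, with LETO 1 lowest as for Slc22a4.

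The tissue label was checked by summed marker signal, in multiples of the array's 75th percentile. Signals were summed on the linear scale, so a sum follows its brightest gene and says little on the dimmer ones. In the atrial list that gene was Myl4, with a mean log2 signal of 7.02 in OLETF and 7.11 in LETO. In the macrophage list it was Lyz2, with 3.37 in OLETF and 3.09 in LETO. The 8 cardiomyocyte markers summed to 2160 to 2630 in OLETF and 2320 to 2610 in LETO, and 0 of the 8 were called. The 5 atrial markers summed to 131 to 150 in OLETF and 147 to 182 in LETO, with all 5 differences negative and 0 called; Myl7 and Sln varied widely within both strains, with SDs of 2.59 and 2.66 in OLETF and 2.31 and 2.91 in LETO. In whole tissue, fewer cells of a type and less RNA per cell cannot be told apart. Beside the higher Slc22a4 and Slc47a1, the 6 tested macrophage markers summed to 12.1 to 12.8 in OLETF and 9.34 to 11.9 in LETO, with 0 called (Lyz2 0.28 ± 0.11, Csf1r 0.05 ± 0.13, Adgre1 -0.38 ± 0.21). The 4 tested lymphocyte markers summed to 0.92 to 1.05 in OLETF and 1.63 to 2.11 in LETO, with Cd3g and Nkg7 lower in OLETF at limma adjusted p of 0.0178 and 0.022. Fibroblast markers summed to 79.9 to 92.1 in OLETF and 63.5 to 83.8 in LETO, endothelial markers to 48.7 to 53.8 in OLETF and 46.9 to 50.1 in LETO, and smooth muscle and pericyte markers to 8.01 to 8.46 in OLETF and 8.8 to 11.5 in LETO, with 0 called in each. Wt1, the 1 mesothelial marker tested, was at 0.418 to 0.529 in OLETF and 0.373 to 0.417 in LETO and was not called. The 3 tested red cell markers summed to 6.64 to 7.71 in OLETF and 6.26 to 22.4 in LETO, with Slc4a1 called higher, while the globins Hba-a2 and Hbb had -0.94 ± 0.34 and -2.22 ± 0.95 and were not called. The part of these cell types in the differences of Slc47a1, Slc22a4 and Pdzk1 was not tested.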

How the data were processed

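The scanner files hold spot intensity, which the authors' software, Agilent Feature Extraction 10.7.3.1 per the file headers (9.1 per the submitters' processing notes), had background-subtracted and detrended; array positions are on rn4, per the file headers. The authors' deposited values are the same intensity scaled by 1 factor for each array, close to its 75th percentile, on a linear scale and without centring; the column medians are 0.154, 0.157 and 0.159 in OLETF and 0.163, 0.154 and 0.158 in LETO, and the table served as an alternative. Groups, ages and replicate numbers came from the labels; the source name of LETO 2 reads replicate 1.

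Control and outlier-flagged spots were left out, which removed 17 of 30367 probes entirely. Spots of a probe were averaged as log2 processed intensity and the array's 75th percentile subtracted. A probe was tested if well above background on all 3 arrays of either strain (21484 probes), and the brightest tested probe stood for a gene. OLETF was compared with LETO in R 4.3.3 with limma 3.58.1 (lmFit, eBayes), with Benjamini-Hochberg adjustment over 18816 genes at 0.05, and the code was tested on simulated data. Figures were drawn with matplotlib 3.10.9. The number of arrays, 3 against 3, limits the precision; p-values measure the spread between these arrays.

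The 6 genes and the related lists were chosen with earlier results of these data known. Named genes were all 6 transporters with every probe; from each related list up to 4 called genes or, with none called, the 2 with the smallest p (1 cation transporter that this names is not reported here); the 5 called solute carriers with the largest difference among those above background on all arrays; and the 3 genes most like Slc47a1 and Slc22a4. Cpt1b, Cpt2, Slc9a3r1, Slc9a3r2, Ppara, the neighbours and single marker genes were named after their values were seen. Same-numbered arrays did not deviate together (correlations of -0.09, -0.14 and -0.01), and the fit as reported did not pair them. With 3 arrays in each strain these correlations cannot exclude a pairing. Alternatives covered normalization, background, dim-probe filter, probe choice, limma's prior, array weights, age, slide, replicate block and leaving out each array.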

Additional observations from a re-analysis of the deposited data

How the results depend on the processing

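Over all genes, 480 calls became 240 with no filter on dim probes, 1700 with array weights, 301 with replicate number as a block, 105 with slide as a block and 216 to 614 with 1 array left out; the replicate block left the 6 differences as they were. Solute carriers called, 9 in the fit as reported, came to 4 with no filter and 4 with slide as a block, 30 with array weights and 5 to 9 with 1 array left out, the lowest without LETO 2. Calls in the related lists, 1 as reported, came to 2 with normexp and quantile normalization, 0 when a spot had to be above background on all 6 arrays (which leaves no value for Pdzk1 or Slc47a1), 4 with a trended and robust prior, 5 with array weights and 1 to 2 with 1 array left out, the highest without LETO 1. Genomic neighbours, 0 as reported, gave 1 with each of normexp, the trended and robust prior and array weights. That set of neighbours was added after the values were seen. With normexp and quantile normalization Slc47a1 differed by 0.76 and Slc22a4 by 0.84; Slc29a4 was -0.10 with slide as a block or within that slide. Apart from normexp's offset and the stricter filter, whose construction acts on dim spots, the cause was not tested. The difference kept its sign in every setting that gave one for Slc47a1 (19), Slc22a4 (20) and Slc22a3 (20). Settings that change only the filter, the prior or the replicate block leave the difference of a gene with 1 probe as it was. The settings are therefore not separate checks. Signal near background limits Slc47a1 and Pdzk1, each read by 1 probe, and no protein or transport was measured.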
